A study of Mus musculus with 2 samples.

Results

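Plasminogen activation and coagulation genes are described here as a cell expresses them, as proteases, inhibitors and receptors that act on or respond to plasma proteins. The group holds 9 genes, chosen by symbol out of the 44291 genes in the deposited values. They are Plat, Plau, Plaur, Serpine2, Serpinf1, F3, Tfpi, F2r and Thbd. All of them had a mean FPKM (reads scaled by exon length and by the depth of the library) of at least 1, the filter used here, and 13401 genes passed it in all. The cells were primary fibro-adipogenic progenitors (FAPs), stromal cells of muscle from which adipocytes can arise, isolated by antibody sorting from the hind limb muscles of wild-type, young adult C57BL/6 mice. The antibodies that the study lists include those to CD31, CD45 and Sca-1, which mark endothelial cells, blood cells and FAPs. The PRP library came from FAPs given platelet-rich plasma (PRP), a plasma fraction that the methods of the study prepare from human blood, and the control library from FAPs given vehicle. Both cultures received adipogenic induction medium with IBMX, dexamethasone, insulin and fetal bovine serum. The labels name PRP, while the text of the study speaks of treatment with exosomes isolated from PRP of young donors. The labels give neither the hours of treatment nor the number of mice behind a culture. There was 1 library per group, so no difference below has a replicate check, and no p-value is given.

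Plasminogen is a plasma proenzyme that the serine proteases tPA (Plat) and uPA (Plau) cut into plasmin, which dissolves fibrin and other matrix proteins. On the coagulation side, tissue factor (F3) starts the cascade that ends in thrombin, and thrombin signals to cells by cutting the receptor PAR1 (F2r) or is turned toward protein C activation by thrombomodulin (Thbd). Mesenchymal cells around vessels are known carriers of tissue factor, which meets plasma when a vessel is injured.

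Gene-assigned depth, worked out from the FPKM values, was 40120843 reads for PRP and 34139741 reads for the control. FAP markers were found in both libraries, with Pdgfra at 19.8 and 27.9 FPKM and Ly6a at 59.9 and 66.4 FPKM in the PRP and control library, although Pi16 and Lum lay below 0.1 FPKM. Of 9 FAP markers 7 passed the filter, 1 higher and 6 lower in the PRP library, where 50.9% of all tested genes were higher. The FAP list summed to 233.1 FPKM with PRP and 380.8 FPKM in the control. Most of that gap came from Col1a1 (118.6 and 218.7 FPKM) and Dpt (18.8 and 50.2 FPKM), while Dcn had 7.54 and 8.36 FPKM and Twist2 3.58 and 3.01 FPKM. The summed adipocyte list was at 51.05 and 43.44 FPKM, most of it Fabp4 (40.65 and 33.60 FPKM). Adipoq (5.49 and 5.22 FPKM) and Cfd (2.92 and 2.22 FPKM) were higher with PRP and Plin1 (1.73 and 2.10 FPKM) was lower. The counting intervals of these ratios, described below, held 1 for Adipoq, Cfd and Plin1. The macrophage list was at 10.66 and 11.05 FPKM, with Cd68 (4.56 and 2.31 FPKM) and Lyz2 (4.91 and 7.57 FPKM) on opposite sides. The myogenic list was at 6.47 and 7.15 FPKM. The 9 platelet markers summed to 2.43 FPKM with PRP and 3.73 FPKM in the control. Of these, Gp1bb passed the filter (0.872 and 2.26 FPKM, with 92.9% of its exon length shared with other genes), Gp1ba had 100 and 96 reads, Itga2b had 124 and 68 reads, Ppbp and Gp9 were listed at 0 in both libraries, and Pf4 had 2 and 0 reads. These are mouse genes with reads aligned to the mouse genome, while the PRP was prepared from human blood. The list therefore cannot tell how much platelet RNA the PRP carried. Endothelial cells are another source of Tfpi, F2r and Thbd. Of 10 endothelial markers 2 passed the filter, Kdr (4.226 and 1.499 FPKM) and Tek (4.73 and 3.56 FPKM), both higher in the PRP library, and the summed level of the list was 10.1 FPKM with PRP and 6.05 FPKM in the control. Among the defining endothelial genes, Cldn5 was listed at 0 in both libraries. Cdh5 had 0.0949 and 0.0976 FPKM (16 and 14 reads), and Pecam1 had 0.188 and 0.0470 FPKM (47 and 10 reads). Of the others, all below the filter, Egfl7 (0.348 and 0.540 FPKM) and Tie1 (0 and 4 reads) were lower with PRP. Emcn, Vwf and Esam were higher. In such bulk RNA, fewer cells of a type and less RNA per cell cannot be told apart.

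The starts of these genes are shown first, and any relation of their motifs to the levels below was not tested. RefSeq windows on GRCm38.p6 matched 6 of the 9 genes, namely F2r, F3, Plaur, Serpine2, Serpinf1 and Tfpi (with 2 starts), and Plat, Plau and Thbd had no entry. The 250 bases before each start were searched on both strands for a loose AP-1 motif, TGANTCA, where N is any base. The usual AP-1 site has C or G at N, so the counts and the share of AP-1 motifs include other letters. Also searched were the cAMP response element TGACGTCA, the GC box GGGCGG and the TATA motif TATAAA. AP-1 motifs stood in the windows of Plaur (1, beginning 69 bases upstream), F2r (1, at 204 bases) and F3 (2, at 146 and 135 bases), and 6.75% of 32851 windows of all genes had one. The windows of Serpine2, Serpinf1 and Tfpi had none. In F3 the match at 146 bases reads TGAATCA, while the other matches have C or G in the middle. No window of the group held TGACGTCA, which 1.55% of all windows had. GC boxes, present in 32.7% of all windows, numbered 6 in Serpine2, 3 in Plaur, 3 in F3, 1 in F2r and 1 at each start of Tfpi, and some overlap one another in Serpine2 and Plaur. The window of Serpinf1 had none. Of those of Serpine2, 4 lie in the printed stretch. That stretch lies inside the GENCODE M21 bounds of the gene, downstream of its outermost start. The TATA motif, in 12.4% of all windows, was found only at 1 start of Tfpi among the 7 windows. A match is a description of the letters and not a binding site. The 4 windows are given below in the direction of transcription, without bases that GENCODE M21 places in an exon of the gene, and capitals mark AP-1 motifs and GC boxes on either strand.
Plaur, chr7:24462233-24462482, plus strand: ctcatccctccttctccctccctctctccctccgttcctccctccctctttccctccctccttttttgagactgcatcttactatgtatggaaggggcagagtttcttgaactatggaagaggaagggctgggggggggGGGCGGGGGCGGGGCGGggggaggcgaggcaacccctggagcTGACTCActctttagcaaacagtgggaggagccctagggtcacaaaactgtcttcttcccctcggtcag
F2r, chr13:95618488-95618716, minus strand: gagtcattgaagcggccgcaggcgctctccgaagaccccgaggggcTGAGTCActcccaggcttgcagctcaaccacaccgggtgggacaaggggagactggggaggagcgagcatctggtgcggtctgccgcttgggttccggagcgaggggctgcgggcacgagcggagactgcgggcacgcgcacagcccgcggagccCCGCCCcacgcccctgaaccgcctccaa
F3, chr3:121723287-121723536, plus strand: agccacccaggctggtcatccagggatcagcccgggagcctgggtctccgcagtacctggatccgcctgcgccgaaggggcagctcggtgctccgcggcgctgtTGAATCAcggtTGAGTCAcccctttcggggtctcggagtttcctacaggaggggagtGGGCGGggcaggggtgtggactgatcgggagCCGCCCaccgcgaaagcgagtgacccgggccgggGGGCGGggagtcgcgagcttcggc
Serpine2, chr1:79858697-79858915, minus strand: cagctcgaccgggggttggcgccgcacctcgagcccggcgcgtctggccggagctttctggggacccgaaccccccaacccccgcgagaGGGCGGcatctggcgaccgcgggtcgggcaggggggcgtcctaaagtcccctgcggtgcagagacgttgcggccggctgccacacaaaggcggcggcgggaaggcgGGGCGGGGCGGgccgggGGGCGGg

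**Figure D1:**
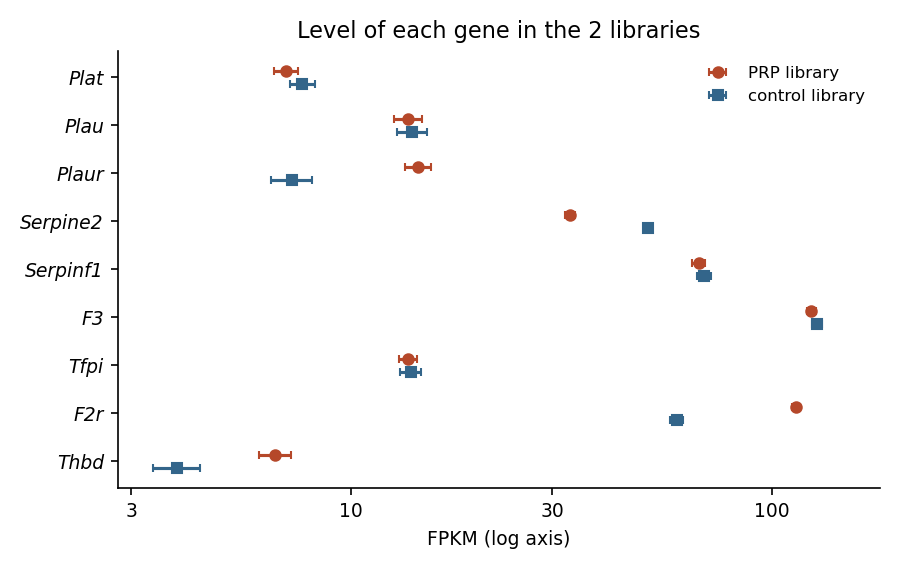
Level of each gene in FPKM (log axis) in the PRP library (circles) and the control library (squares). Bars are exact Poisson 95% intervals of the fragment number and cover counting error only. Plaur, F2r and Thbd lay higher in the PRP library, Serpine2 lay lower, and the bars of the other 5 genes overlapped.

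By FPKM ratio the receptors differed most between the libraries, and no difference beyond counting error was found for the protease genes. Plaur, F2r and Thbd had between 1.71 and 1.99 times the control level in the PRP library, whereas the inhibitor gene Serpine2 had 0.654 times that level. The activators Plat and Plau, the initiator F3, its inhibitor Tfpi and the serpin gene Serpinf1 had ratios between 0.916 and 0.987. On the log2(FPKM + 1) scale 3 of the 9 genes were at least 1.5-fold higher in the PRP library, where 6.15% of all tested genes were, and 1 was at least 1.5-fold lower, where 4.57% were. None of the 9 reached 2-fold in either direction, as 2.00% (higher) and 0.828% (lower) of all tested genes did. The median log2 fold change of the group was -0.03, against 0.01 over all tested genes, and 3 of the 9 were higher at any size, as were 50.9% of all tested genes, the background for the counts of higher and lower genes in the lists below. Exact 95% binomial intervals of the ratio, which cover counting error only, left out 1 for 4 genes. That share is close to the background, since 52.2% of the 12369 tested genes with recovered reads had such an interval.

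Plaur encodes the uPA receptor uPAR, a protein tethered to the membrane by a lipid anchor that holds uPA at the cell surface. Plaur (ENSMUSG00000046223, chromosome 7, 24462484 to 24475968, plus strand) stood at 14.4 FPKM with PRP and 7.23 FPKM in the control, from 1512 and 646 reads. Its ratio was 1.99 (95% interval 1.75 to 2.28) and its log2 fold change 0.90, a value that 2.45% of all tested genes exceeded. Its start carried an AP-1 motif and a run of overlapping GC boxes, and the starts of F2r and F3 also carried both motifs. Any relation of the motifs to the level was not tested.

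F2r encodes PAR1, the main thrombin receptor, which is switched on when thrombin cuts its outer end. F2r (ENSMUSG00000048376, chromosome 13, 95601803 to 95618487, minus strand) measured 113.8 FPKM with PRP against 59.2 FPKM in the control, from 15233 and 6746 reads. The ratio was 1.92 (1.85 to 2.002) and the log2 fold change 0.93, exceeded by 2.31% of tested genes. In absolute terms F2r had the widest gap of the group, 54.6 FPKM, and in the PRP library only F3 among the 9 stood above it.

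Thbd encodes thrombomodulin, which binds thrombin and redirects it from fibrinogen to protein C. It is a gene of a single exon (ENSMUSG00000074743, chromosome 2, 148404466 to 148408188, minus strand) and the lowest of the 9, with 6.60 FPKM under PRP and 3.86 FPKM under vehicle. From 986 and 490 reads the ratio was 1.71 (1.47 to 2.004), and its log2 fold change was 0.65. With a pseudocount of 5 in place of 1 this value was 0.39, below 1.5-fold. The 2 endothelial markers past the filter were also higher in the PRP library, while those below it were mixed, as given above. The part of the endothelial markers in the values of Thbd and F2r was not tested.

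Serpine2, the gene of protease nexin-1, a serpin that blocks thrombin, uPA and plasmin near the cell surface, was the only one of the 9 at least 1.5-fold lower. Serpine2 (ENSMUSG00000026249, chromosome 1, 79794197 to 79861180, minus strand) reached 33.1 FPKM under PRP and 50.7 FPKM under vehicle, from 11019 and 14334 reads. The ratio was 0.654 (0.631 to 0.678) and the log2 fold change -0.60, and 4.34% of tested genes had a lower value. It lay close to the 1.5-fold line and was short of it, at -0.55, with a pseudocount of 5. The summed FAP markers, mainly Col1a1 and Dpt, were also lower in the PRP library, as given above, and their part in the value of Serpine2 was not tested. Its window, which lies inside the gene bounds given here and not before the outermost start, was the richest of the group in GC boxes. That window was also the richest of the group in the letters G and C, at 78.8% against a median of 52.4% over all windows. Levels per length depend on the merged exon length, which was longest for Serpine2 (8287 bases), Plat (6241 bases) and Tfpi (5463 bases), whereas the ratio between the libraries does not depend on it.

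Of the activators, Plau (ENSMUSG00000021822, chromosome 14, 20836660 to 20843385) stood at 13.7 FPKM with PRP and 13.9 FPKM in the control (ratio 0.980, 0.874 to 1.10). Plat (ENSMUSG00000031538, chromosome 8, 22757727 to 22782844) had 7.01 and 7.66 FPKM (ratio 0.916, 0.831 to 1.008). Neither difference was detectable at 1126 to 1756 reads per gene and library. With reads counted singly rather than as pairs, the interval of Plat ended at 0.980, on the lower side of 1.

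F3, the gene of tissue factor, was the most abundant of the group, and 3.17% of tested genes had a higher mean level. F3 (ENSMUSG00000028128, chromosome 3, 121723537 to 121735048) measured 123.8 FPKM with PRP against 127.5 FPKM in the control (ratio 0.971, 0.936 to 1.007). Its start held 2 matches to the loose AP-1 motif, 1 of them TGAATCA. The level of F3 differed by less than counting error, although the interval with reads counted singly ended at 0.996. Tfpi, which encodes the Kunitz-type inhibitor of tissue factor and factor X (ENSMUSG00000027082, chromosome 2, 84432855 to 84476775), had 13.6 and 13.8 FPKM (ratio 0.987, 0.915 to 1.06). Serpinf1 encodes PEDF, a secreted serpin known for restraining vessel growth rather than for blocking a protease (ENSMUSG00000000753, chromosome 11, 75409769 to 75422701). It reached 66.9 FPKM under PRP and 69.0 FPKM under vehicle (ratio 0.970, 0.922 to 1.02). None of the 9 genes shares exon bases with another gene in M21.

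**Figure D2:**
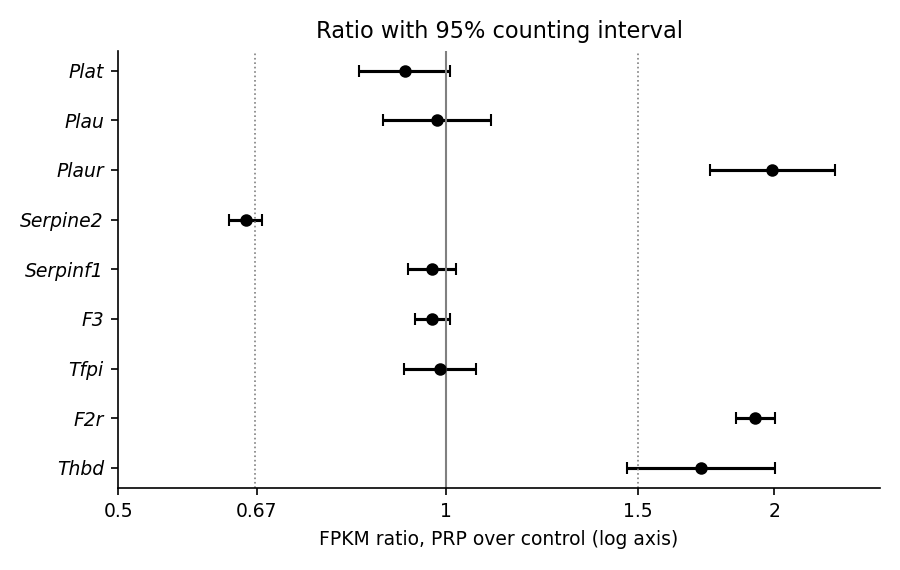
FPKM ratio of the PRP over the control library (log axis) with exact binomial 95% intervals. The solid line marks 1 and the dotted lines mark 1.5-fold in either direction. Plaur, F2r and Thbd lay right of the upper dotted line, although the interval of Thbd crossed it, Serpine2 lay at the lower one, and the intervals of the other 5 genes crossed 1.

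The order of levels within a library followed from these values. In the control library it ran from F3 over Serpinf1, F2r, Serpine2, Plau, Tfpi, Plat and Plaur down to Thbd, a range of 33.1-fold. In the PRP library F2r stood above Serpinf1, and Plaur stood above Plau, Tfpi and Plat, with a range of 18.7-fold. Neighbours whose counting intervals overlapped were Plau and Tfpi in both libraries, Plat and Plaur in the control library, and Plaur and Plau as well as Plat and Thbd in the PRP library.

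Ratios of partners within a library do not depend on how a library is scaled. Each quotient between the libraries restates the ratios of its genes given above. Plaur stood at 1.05 times the level of its ligand gene Plau with PRP and at 0.519 times that level in the control, a 2.03-fold difference (1.71 to 2.41 by counting error). Serpine2 stood at 2.43 and 3.64 times Plau (quotient 0.667, 0.593 to 0.751). F2r stood at 3.43 times Serpine2, whose protein blocks thrombin, with PRP and at 1.17 times in the control. The quotient of 2.94 (2.78 to 3.10) sets a higher gene of the group over its only gene at least 1.5-fold lower. By contrast F3 stood at 9.07 and 9.22 times its inhibitor Tfpi (quotient 0.984, 0.906 to 1.07), and F2r at 17.2 and 15.4 times Thbd (1.12, 0.958 to 1.32). The ratios of F3 to Tfpi and of F2r to Thbd thus differed by less than counting error between the libraries, while those of Plaur and of Serpine2 to Plau differed by more.

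**Figure D3:**
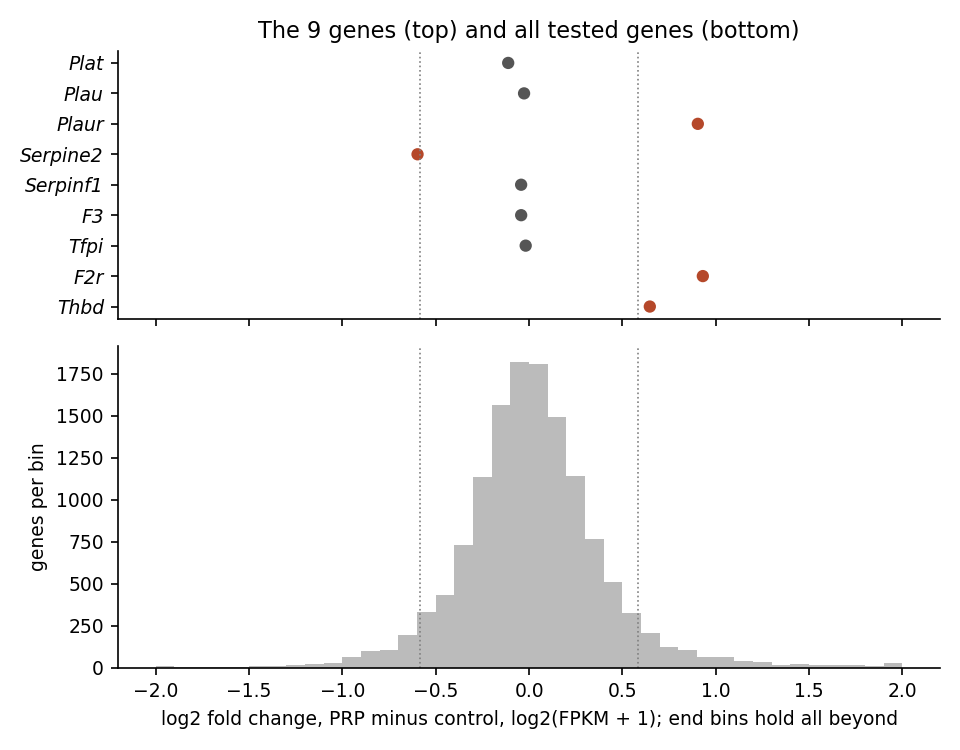
Log2 fold change on the log2(FPKM + 1) scale, PRP minus control, of the 9 genes (top, 1 point each) and of the 13401 tested genes (bottom, histogram with bins of 0.1). Dotted lines mark 1.5-fold. Plaur, F2r and Thbd lay in the upper tail and Serpine2 at the lower line, while the other 5 genes lay at the centre.

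The rest of the plasminogen system was read from 18 listed genes, of which 6 passed the filter, with 2 higher, 4 lower and a median of -0.09. Of these, Mrc2 was at least 1.5-fold lower in the PRP library. Mrc2, the gene of a collagen uptake receptor that associates with uPAR, had 26.6 against 47.3 FPKM (ratio 0.563, 0.539 to 0.587). The plasminogen-binding genes Anxa2 (106.0 and 103.4 FPKM) and Eno1 (222.1 and 224.4 FPKM) had intervals that held 1. S100a10, whose product pairs with annexin A2, had 39.7 against 26.8 FPKM (log2 fold change 0.55), and the clearance receptor gene Lrp1 had 62.8 against 90.8 FPKM (-0.53), both short of 1.5-fold. Plg, the gene of plasminogen itself, had 0 reads with PRP and 2 under vehicle.

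In the coagulation list 8 of 27 genes passed the filter, with 3 higher, 5 lower and a median of -0.07. Procr, the gene of the endothelial protein C receptor, which presents protein C to thrombin bound on thrombomodulin, measured 50.6 FPKM with PRP against 14.4 FPKM in the control (4123 and 998 reads). Its ratio of 3.52 (3.19 to 3.88) and log2 fold change of 1.75 were larger than those of any of the 9 genes, and it was on the same side as Thbd. The part of the endothelial markers in this value was not tested either. Lower in the PRP library were Gas6, the gene of a vitamin K-dependent ligand (105.0 against 171.2 FPKM, ratio 0.614, 0.592 to 0.636), and Ggcx, the gene of the carboxylase that vitamin K-dependent proteins need (3.75 against 6.38 FPKM, ratio 0.587, 0.497 to 0.693). Mcfd2, a cargo receptor gene for factor VIII, had 48.7 and 46.7 FPKM, and its interval held 1. Below the filter, Serpinc1 had 161 and 105 reads, F8 had 120 and 138 reads, and F7 had 85 and 50 reads (1.14 and 0.788 FPKM). The prothrombin gene F2 had 2 and 3 reads, fibrinogen genes had at most 6 reads, and F9 was listed at 0 in both libraries.

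The other protease-activated receptors were low. F2rl1 had 1.02 and 0.641 FPKM, a mean under the filter, and F2rl2 and F2rl3 were listed at 0 in both libraries, so F2r was the one member of this receptor family that passed. The list held 4 genes of G proteins that PAR1 couples to, and genes of other G proteins were not looked at. All 4 passed, and none reached 1.5-fold. Gna13 had 7.34 against 5.47 FPKM (ratio 1.34, 1.21 to 1.49). Gna11 had 16.9 against 22.4 FPKM (ratio 0.756, 0.703 to 0.813), Gna12 had 7.59 against 5.88 FPKM (1.29, 1.12 to 1.48), with 13.3% of its exon length opposite an exon of Amz1, and Gnaq had 6.49 and 6.75 FPKM (0.962, 0.869 to 1.07).

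Among other serpin genes 7 of 9 passed, with 6 lower, 1 higher and a median of -0.14. The collagen chaperone gene Serpinh1 had 226.9 and 250.3 FPKM (ratio 0.907, 0.882 to 0.931), and the C1 inhibitor gene Serping1 had 15.5 and 18.2 FPKM (ratio 0.850, 0.765 to 0.943). Serpinb6a had 144.5 and 133.2 FPKM, but 29.3% of its exon length lies opposite exons of other genes. Serpinb1a was the only one past 1.5-fold, at 2.78 against 6.31 FPKM (0.441, 0.353 to 0.548).

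Plasmin is known to cut the proforms of several matrix metalloproteinases. Of 7 listed genes of this family, not all of them taken as cut by plasmin, 5 passed the filter, with 3 higher, 2 lower and a median of 0.60. Mmp3 had 30.6 against 9.89 FPKM (ratio 3.09, 2.72 to 3.53), Mmp10 had 4.79 against 2.57 FPKM (1.86, 1.41 to 2.48) and Mmp13 had 3.95 against 2.28 FPKM (1.74, 1.36 to 2.21). The more abundant Mmp2 (79.6 against 117.4 FPKM, 0.678, 0.654 to 0.703) and Mmp14 (55.3 against 69.7 FPKM, 0.793, 0.767 to 0.821) were lower. The sign of the median thus belongs to the 3 less abundant genes, and it was -0.33 when the filter was set to a mean of at least 5 FPKM.

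**Figure D4:**
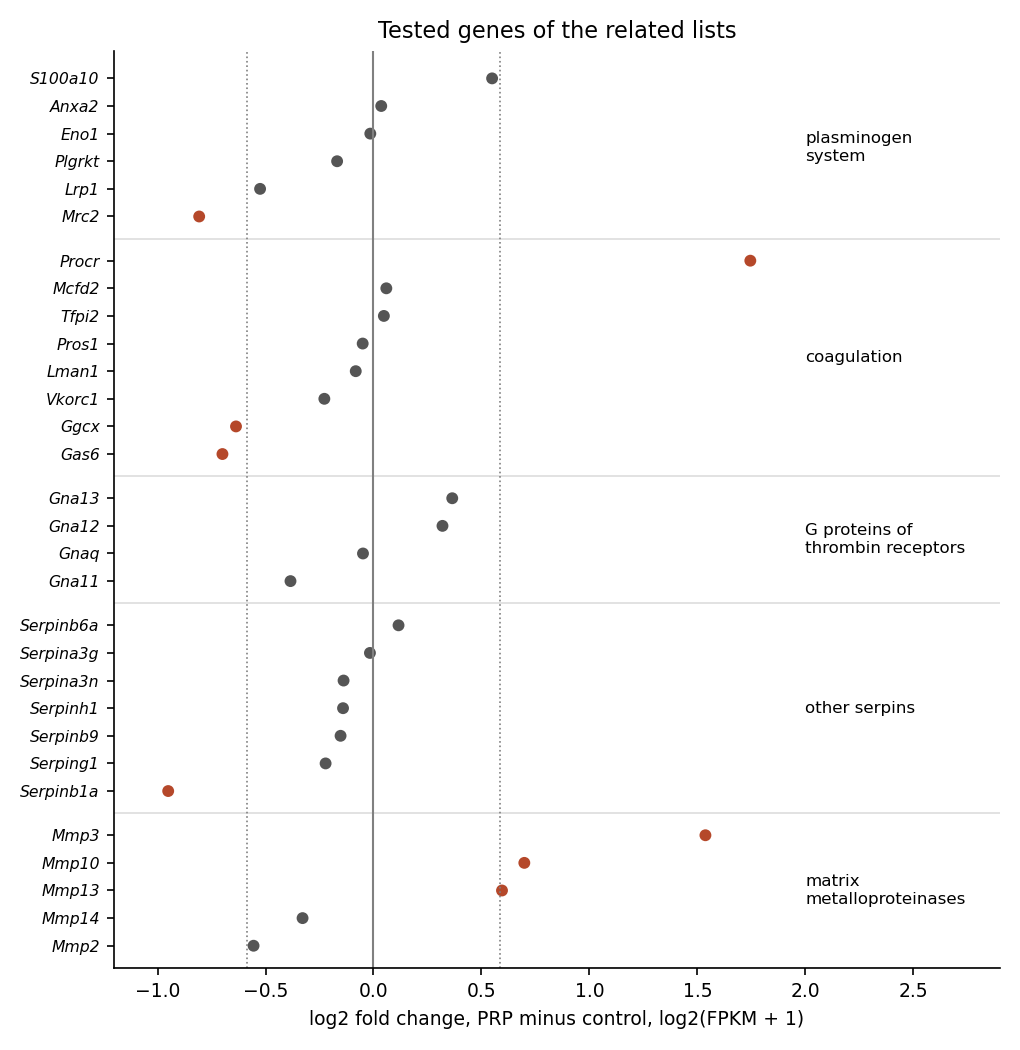
Log2 fold change on the log2(FPKM + 1) scale, PRP minus control, of the tested genes of 5 related lists, 1 point per gene. Dotted lines mark 1.5-fold, and genes past them are in red. Procr and Mmp3 lay farthest to the right, and Serpinb1a and Mrc2 farthest to the left.

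The study names the microRNAs let-7f and miR-16 as cargo of PRP exosomes, so the seed matches of both were looked for in the longest 3′UTR that M21 gives each gene. The mature mouse sequences in RefSeq (GRCm38.p6) are given with the seed, bases 2 to 8, in capitals.
mmu-let-7f-5p: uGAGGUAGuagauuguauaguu
mmu-miR-16-5p: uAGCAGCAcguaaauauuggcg

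A match to the let-7f seed stood in 1 of the 9 genes, Plaur, against 9.86% of the 10292 tested genes that have a 3′UTR in M21. Matches to the miR-16 seed stood in Tfpi (1) and Thbd (2), where the share among those genes was 24.6%. The other 6 genes, F2r and Serpine2 among them, had neither. The sites are given with their neighbouring bases and GRCm38 positions, with the seed match in capitals.
Plaur, chr7:24475919-24475937, plus strand: cccacctgcctCTACCTCc
Tfpi, chr2:84440407-84440425, minus strand: gttaaggtactTGCTGCTa
Thbd, chr2:148405922-148405940, minus strand: tcacctcctagTGCTGCTg
Thbd, chr2:148405133-148405151, minus strand: tacaagcaatgTGCTGCTg

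Of the genes with a match, Plaur and Thbd were higher in the PRP library, at ratios of 1.99 and 1.71, and Tfpi was at 0.987. A match in these letters is a description and does not show that a microRNA acted on the transcript.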

How the data were processed

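RNA of 2 FAP cultures, 1 treated with PRP and 1 with vehicle, was sequenced from stranded mRNA libraries. Per the labels and the methods of the study, the authors trimmed reads (fastp 0.23.4), aligned them to mm10 (STAR 2.5.3a) and used featureCounts to count reads on genes. What was deposited by the authors is FPKM, and the step from counts to FPKM and the annotation release are not given in the sources used here.

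Exon lengths were taken from GENCODE M21 (GRCm38, the same build as mm10), which held 41492 of the 44291 gene identifiers. With these lengths 93.8% of genes above 0 gave whole read numbers for PRP and control alike (tolerance 0.001), all 9 genes described among them. Even read numbers prevailed among low genes (79.3% and 80.3%), so fragments were taken as reads divided by 2. Log2 fold changes were log2(PRP FPKM + 1) minus log2(control FPKM + 1), which understates changes of low genes. Ratios have Clopper-Pearson 95% intervals of fragments, levels have Poisson intervals, and quotients of ratios have intervals on the log scale. All cover counting error only, take no account of PCR duplicates and compare libraries, not treatments. With 1 library per group no test was run.

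The 9 genes, the lists and the alternatives were chosen with earlier results of these data known. All 9 genes are described. From each list, genes past 1.5-fold and the 3 most abundant are named. S100a10, Gna13, F2rl1, Serpinc1, F8, F7 and genes near 0 were added after their values were seen. A gene of the plasminogen list is not reported here, and the counts and median of that list leave it out. Likeness to other genes was not ranked, because 2 libraries give 1 ratio per gene. Python 3.11.15, NumPy 2.4.6, pandas 2.3.3, SciPy 1.17.1 and matplotlib 3.10.9 were used, and the procedures were tested on simulated data.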

Additional observations from a re-analysis of the deposited data

How the results depend on the processing

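No replicate was available, so every value rests on 1 library per group, and depth limits Thbd, Plaur and Plau most. No paired analysis was possible because only 1 PRP and 1 control library exist. All 9 genes passed each filter tried, so a filter could not move their values. Of 45 values of the 9 genes under the other 5 alternatives (pseudocounts of 0.1 and 5, rescaling to a common sum, the same without mitochondrial genes and the 50 most abundant genes, and centring), 42 moved by less than counting error, 3 moved by more and 0 changed sign. The 3 were those of Plaur, Serpine2 and Thbd with a pseudocount of 5. A pseudocount of 5 weighs more on low values by construction, and it left 2 genes at least 1.5-fold higher and 0 lower. The 1.5-fold threshold, applied in place of 2-fold, gave 3 genes higher and 1 lower, and its use under the other alternatives was added after seeing the data.

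The median of the 9 genes was -0.042 when both libraries were brought to a common sum and -0.058 when mitochondrial and top genes were left out of it. The list medians that changed sign were that of coagulation (0.021) without a filter, and that of the matrix metalloproteinases (-0.33) at a mean FPKM of at least 5, where fewer genes remain. The shares of all tested genes at least 2-fold higher and lower were 3.51% and 2.00% with a pseudocount of 0.1, 0.627% and 0.216% with a pseudocount of 5, and 1.03% and 0.470% without a filter. At 1.5-fold the shares were 6.15% and 4.57%.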
